A study of Mus musculus with 2 samples.

Results

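GATA4 occupied sites were examined at 10 genes of the vascular endothelial receptor systems: the receptor phosphatase Ptprb, the Tie receptors Tek and Tie1, the angiopoietins Angpt1 and Angpt2, the VEGF receptors Kdr, Flt1 and Flt4, and the neuropilins Nrp1 and Nrp2. A site was counted at a gene when the midpoint of its peak lay in the gene body or within 50 kb of either end. By this rule 23 of the 4409 sites of the common list (0.522%) fell at 6 of the 10 genes. These genes were selected on the same peak lists, so every count at them is a description and no test was made of it.

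GATA4 ChIP-seq had been carried out on whole liver of C57BL/6 x Sv129 mice that the labels give as 2 to 3 months old. The 2 samples were 1 chromatin immunoprecipitation with the anti-GATA4 C-20 antibody and 1 input DNA without antibody, and the labels name no treatment or engineered allele for either. The files hold 3 peak lists, called with SPP (4811 peaks), with MACS2 (5867 peaks) and their common list, each for pooled biological replicates that were themselves made of pooled livers. The files hold no read count for any peak, so the depth behind a site is unknown and no error between animals can be stated. Whole liver mixes hepatocytes with sinusoidal endothelium and other cells, and a site occupied strongly in few cells cannot be told apart from a site occupied weakly in many. Peak lists hold no expression values against which the tissue could be checked. In all 3 lists every peak carries a score of 1000, so the number of a peak in its list was the only order at hand. For the reproducibility filter the study had ranked SPP peaks by signal and MACS2 peaks by p-value, but the files do not state whether the numbers follow these ranks.

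GATA4 is a zinc finger factor that binds the sequence WGATAR, where W is A or T and R is A or G. The receptors at these genes sit on endothelial cells. VEGF binds Kdr (VEGFR2), its main signalling receptor, and Flt1 (VEGFR1), which holds the ligand with little signalling of its own, while Flt4 (VEGFR3) serves the lymphatic ligands and the neuropilins act as co-receptors for VEGF and class III semaphorins. Angpt1 activates Tek (Tie2) and keeps vessels quiescent, Angpt2 can antagonise it, Tie1 is a partner receptor without a firmly assigned ligand, and Ptprb (VE-PTP) is the endothelial phosphatase that acts on Tek and on VE-cadherin.

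The sequences of the 2 lowest-numbered sites of each occupied gene, for Nrp2 of 1 site, are given first. They show GATA words and, in some sites, the absence of a full WGATAR. The later comparison with all common sites rests on all 23 sites, not on the printed ones alone. The sequences were read from the mouse genome build mm9 in the direction in which the gene is transcribed. Capitals mark each WGATAR or, where it lies on the other strand, its reverse complement. At Ptprb, sites 731 and 1035 lie in introns.
Ptprb site 731 (chr10:115725221-115725408, plus strand): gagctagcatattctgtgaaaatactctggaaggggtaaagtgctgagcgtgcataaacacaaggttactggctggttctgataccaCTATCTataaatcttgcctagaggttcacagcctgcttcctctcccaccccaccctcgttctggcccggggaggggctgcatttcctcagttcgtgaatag
Ptprb site 1035 (chr10:115747663-115747895, plus strand): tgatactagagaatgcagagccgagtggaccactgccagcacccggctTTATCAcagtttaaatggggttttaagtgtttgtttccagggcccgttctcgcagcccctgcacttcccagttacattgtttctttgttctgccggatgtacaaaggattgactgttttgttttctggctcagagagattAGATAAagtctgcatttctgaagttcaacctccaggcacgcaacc

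Site 164 of Tek spans the transcription start. The stretch before the start is shown first and holds no WGATAR, and the window of 30 bases from exon 1 shows where the word AGATAA of this site lies. Site 1355, in intron 1, holds no full WGATAR.
Tek site 164 up to the start (chr4:94405903-94405979, plus strand): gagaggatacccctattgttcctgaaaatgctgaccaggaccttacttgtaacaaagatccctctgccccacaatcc
Tek site 164 window in exon 1 (chr4:94406004-94406033, plus strand): agcaggagcagaAGATAAgccttggatgaa
Tek site 1355 (chr4:94413213-94413424, plus strand): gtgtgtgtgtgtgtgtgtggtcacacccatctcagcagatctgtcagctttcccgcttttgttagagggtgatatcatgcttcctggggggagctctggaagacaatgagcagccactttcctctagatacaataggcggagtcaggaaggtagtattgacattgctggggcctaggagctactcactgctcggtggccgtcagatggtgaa

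Sites 262 and 2353 of Kdr are neighbours in intron 10 and together hold 5 WGATAR words, and site 81 of Flt1 was the lowest-numbered site at any of the 10 genes.
Kdr site 262 (chr5:76358271-76358541, minus strand): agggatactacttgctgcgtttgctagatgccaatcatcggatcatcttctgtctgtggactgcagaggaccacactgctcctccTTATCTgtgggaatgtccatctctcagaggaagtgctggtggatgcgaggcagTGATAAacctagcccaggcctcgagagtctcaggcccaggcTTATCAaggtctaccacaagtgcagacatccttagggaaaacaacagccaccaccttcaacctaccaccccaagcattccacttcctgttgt
Kdr site 2353 (chr5:76357855-76358042, minus strand): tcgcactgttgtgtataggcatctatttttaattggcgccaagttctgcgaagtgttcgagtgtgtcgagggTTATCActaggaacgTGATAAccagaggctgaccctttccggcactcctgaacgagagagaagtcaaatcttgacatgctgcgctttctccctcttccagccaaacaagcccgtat
Flt1 site 81 (chr5:148469489-148469748, minus strand): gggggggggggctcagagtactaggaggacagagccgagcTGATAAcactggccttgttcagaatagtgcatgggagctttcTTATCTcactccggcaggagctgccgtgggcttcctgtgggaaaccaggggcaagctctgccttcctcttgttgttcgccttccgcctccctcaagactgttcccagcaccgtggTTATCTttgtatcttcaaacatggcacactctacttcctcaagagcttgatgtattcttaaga
Flt1 site 1238 (chr5:148533093-148533268, minus strand): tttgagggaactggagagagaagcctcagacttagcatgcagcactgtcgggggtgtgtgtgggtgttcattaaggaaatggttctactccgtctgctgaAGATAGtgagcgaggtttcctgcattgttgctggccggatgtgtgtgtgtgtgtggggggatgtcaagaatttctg

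The sites of the neuropilins contrast a site with a single central WGATAR (Nrp1 site 4010) with one that holds only shortened words (Nrp2 site 2286).
Nrp1 site 1131 (chr8:130911321-130911511, plus strand): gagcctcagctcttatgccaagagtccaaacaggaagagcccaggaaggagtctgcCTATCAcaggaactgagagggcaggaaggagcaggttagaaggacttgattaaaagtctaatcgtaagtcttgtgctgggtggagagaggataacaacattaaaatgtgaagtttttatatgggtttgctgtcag
Nrp1 site 4010 (chr8:131012339-131012468, plus strand): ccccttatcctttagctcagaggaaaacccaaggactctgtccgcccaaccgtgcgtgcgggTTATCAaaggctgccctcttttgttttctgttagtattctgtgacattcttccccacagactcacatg
Nrp2 site 2286 (chr1:62711671-62711832, plus strand): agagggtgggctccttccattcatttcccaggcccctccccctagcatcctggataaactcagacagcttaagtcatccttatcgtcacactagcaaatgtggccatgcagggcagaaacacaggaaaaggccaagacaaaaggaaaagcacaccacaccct

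The number of sites differed widely among the genes. Ptprb had 6 sites, Tek and Flt1 had 5 each, Kdr had 3, and Nrp1 and Nrp2 had 2 each, while Tie1, Flt4, Angpt1 and Angpt2 had 0 in the SPP, the MACS2 and the common list. For background, 27.7% of 22380 protein-coding genes had at least 1 site by the same rule, 9.15% had at least 2, 3.24% at least 3, 0.474% at least 5 and 0.201% (45 genes) at least 6. Long genes take in more sequence, and the body of every gene of the list was at least 18871 bp long. Among the 10036 protein-coding genes with a body of that length or longer, 33.3% had at least 1 site and 0.727% at least 5. That length is the body of Tie1, which had 0 sites. The bodies of Ptprb, Tek and Flt1 were 114.0 to 164.4 kb long, so these shares are not matched in length to the genes with 5 or 6 sites. Since these counts are what selected the genes, nothing is read from their place in that distribution. Per 100 kb of gene body and flanks, the occupied genes ranged from 0.812 sites at Nrp1 to 2.8 at Ptprb, beside a median of 0.91 over all protein-coding genes with a site. That median leaves out genes without a site and is not matched in length, the median body of protein-coding genes being 15.4 kb. Nothing is read from the difference.

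**Figure D1:**
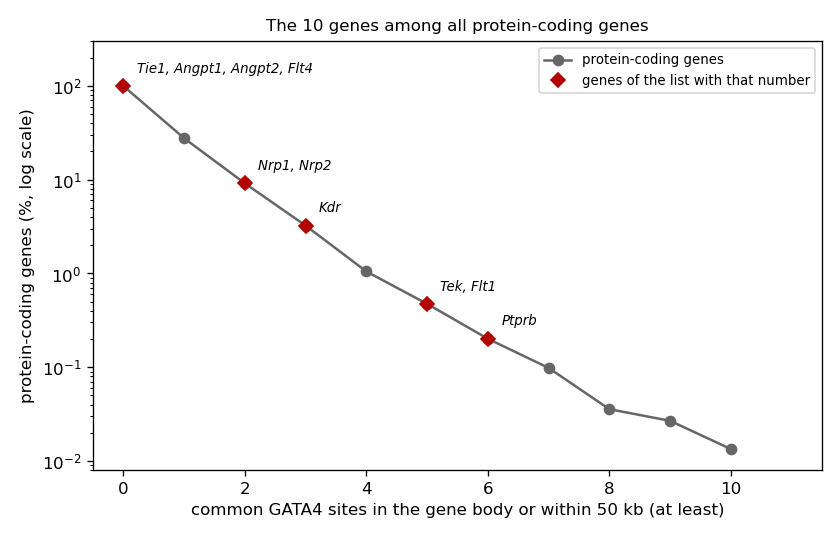
The horizontal axis gives a number of common sites in the gene body or within 50 kb, the vertical axis (log scale) the percentage of 22380 protein-coding genes with at least that many, and diamonds mark the numbers found at the 10 genes. Ptprb stands at 6 sites, a number reached by 0.201% of genes, and 4 of the 10 genes stand at 0.

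Of the 23 sites, 14 lay in gene bodies, 9 upstream and 0 downstream of the gene, with no like split of all common sites beside them. Of the 14 sites in gene bodies, the midpoints of 13 lay in introns of the protein-coding transcripts and that of 1, Tek site 164, in exon 1. The median distance to the nearest protein-coding transcription start was 21.4 kb, against 17.5 kb over all common sites. Within 1 kb of such a start lay 2 of the 23 sites, one at Tek and one at Ptprb, while 14.8% of all common sites did. The nearest start belonged to the gene itself for 21 sites. The exceptions were Flt1 site 2693, with the start of Pan3 at 52.8 kb, and Tek site 2710, with that of Gm17636 at 39.3 kb.

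**Figure D2:**
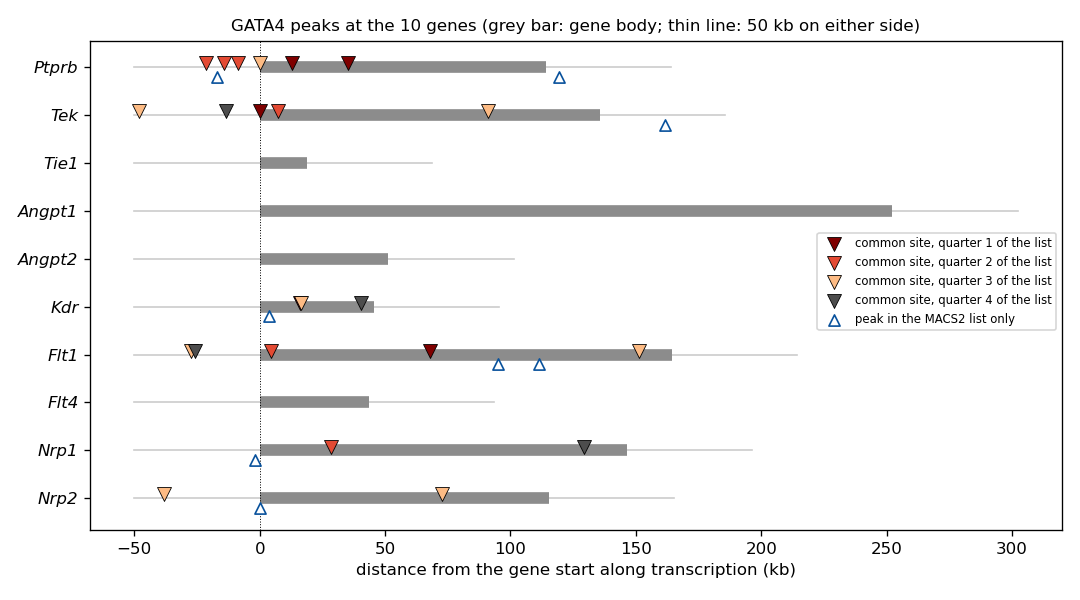
Each row is 1 gene, drawn along its direction of transcription with distance from the gene start in kb, the gene body as a grey bar and the 50 kb on either side as a thin line. Filled triangles are common sites coloured by the part of the common list they come from (4 parts of equal size), open triangles peaks of the MACS2 list alone. Filled triangles gather at the front of Ptprb and its upstream flank, and the rows of Tie1, Angpt1, Angpt2 and Flt4 are empty.

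Ptprb (ENSMUSG00000020154.8, chr10:115712579-115826594, plus strand) had the most sites. Its 6 sites covered the stretch from 21.4 kb before to 35.2 kb after the first annotated start, and no common site lay in the rest of its 114.0 kb body. Going along the gene, the gaps between neighbouring midpoints were 7.0, 5.9, 8.4, 12.8 and 22.5 kb. Site 731 (chr10:115725221-115725408) lay 12.7 kb into the gene, in intron 3 of the transcript Ptprb-201, and came 16.6% of the way down the common list. Site 1035 (chr10:115747663-115747895) lay at 35.2 kb, in intron 4 of that transcript and intron 2 of Ptprb-202, 9.3 kb after the later start of the latter. Its 2 WGATAR words stood on opposite strands with 134 bases between them.

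Site 2497 lay at the first annotated Ptprb start, that of the transcript Ptprb-201, and held 1 WGATAR. The transcript Ptprb-202 starts farther along the gene, after this site and after site 731. The number of this site fell past the middle of the common list, but its MACS2 peak had the number 1101 of 5867. The other 3 sites, numbers 1655, 2147 and 2040, lay 21.4, 14.4 and 8.5 kb before the first annotated start. All 3 were also inside introns near the 3′ end of Ptprr, the neighbouring gene on the same strand and itself a receptor-type phosphatase gene, whose annotated body ends at base 115711988. The nearest protein-coding start to each was that of Ptprb, but peak positions alone cannot assign them to either gene.

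Tek (ENSMUSG00000006386.9, chr4:94405980-94541667, plus strand) carried one of the earliest sites of the common list at its start. Site 164 (chr4:94405903-94406224), 322 bp wide and the widest of the 23, had its midpoint 83.5 bp after the start. It was number 167 in the SPP list and number 51 in the MACS2 list, the lowest MACS2 number at these genes. The AGATAA in it lay in the 5′ untranslated part of exon 1, where it begins at base 37 of the transcript Tek-001. Site 1355 (chr4:94413213-94413424) followed at 7.3 kb in intron 1. The remaining sites were farther apart and came later in the list: site 2450 at 91.0 kb in intron 10 of Tek-001, site 3438 at 13.3 kb and site 2710 at 48.0 kb before the start, the last within an intron of the neighbouring gene Ift74. Of the 5 Tek sites, 2 held a WGATAR (164 and 3438) and 3 did not (1355, 2450 and 2710).

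Kdr (ENSMUSG00000062960.6, chr5:76328852-76374483, minus strand) had all 3 of its sites in the gene body. Site 262 (chr5:76358271-76358541) and site 2353 (chr5:76357855-76358042) lay 16.1 and 16.5 kb after the start in intron 10, their midpoints 457.5 bp apart, the shortest of the 17 gaps between neighbouring sites. MACS2 called both as 1 peak, number 102 of its list. Site 2353 reached 16 bp into coding exon 11, and both sites also lie in exon 10 of the retained-intron transcript Kdr-002. Across the pair, 5 WGATAR words fell within 507 bp, and the closest 2, both TGATAA on opposite strands in site 2353, had 9 bases between them. Site 3923 (chr5:76333914-76334233) lay near the 3′ end, 40.4 kb after the start in intron 27, and was numbered late in the common list. Its 2 words stood near the edges of the peak with 265 bases between them.

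Flt1 (ENSMUSG00000029648.7, chr5:148373180-148537587, minus strand) had the lowest-numbered of the 23 sites. Site 81 (chr5:148469489-148469748), 68.0 kb after the start in intron 10, was number 82 of the SPP list and 79 of the MACS2 list and held 3 WGATAR words. Site 1238 (chr5:148533093-148533268) lay in intron 1 at 4.4 kb and site 2693 in intron 25 at 151.4 kb. Sites 2608 and 4165 formed a second close pair, 27.2 and 25.8 kb before the start, with midpoints 1322.5 bp apart. They had 14 and 11 CpG dinucleotides, the most of the 23 sites. Site 4165, at 66.7% the highest in GC, was the only one of the 23 with neither WGATA nor GATAR on either strand.

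The neuropilins had fewer sites than Ptprb and Tek, over bodies of 146.4 kb (Nrp1) and 115.4 kb (Nrp2) beside 114.0 kb and 135.7 kb. Nrp1 (ENSMUSG00000025810.8, chr8:130882973-131029362, plus strand) had site 1131 in intron 2 at 28.4 kb and site 4010 in intron 12 at 129.4 kb. Nrp2 (ENSMUSG00000025969.9, chr1:62749859-62865269, plus strand) had site 2286 at 38.1 kb before its start and site 2766 in intron 12. Neither had a common site at its start.

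The other 4 genes had no peak in reach in any list. For Tie1 (ENSMUSG00000033191.6, chr4:118143796-118162666, minus strand) the nearest common site lay 348.1 kb from the gene body, for Flt4 (ENSMUSG00000020357.3, chr11:49422765-49466241, plus strand) 195.5 kb and for Angpt1 (ENSMUSG00000022309.8, chr15:42256273-42508523, minus strand) 599.2 kb. For Angpt2 (ENSMUSG00000031465.6, chr8:18690263-18741562, minus strand) it was site 1239 at 95.2 kb, which lay 0.1 kb from the start of Mcph1. Apart from Kdr, the genes with a site had bodies of 114.0 to 164.4 kb. Apart from Angpt1, those without had bodies of 18.9 to 51.3 kb. Angpt1, without a site, had the longest body at 252.3 kb, and Kdr, with 3 sites, had 45.6 kb beside 43.5 kb for Flt4. Whether body length bears on the number of sites was not tested. Both Angpt ligands were among the genes without a site, as were 1 of the Tie receptors and 1 of the VEGF receptors.

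The rule drew its line at 50 kb. The sites nearest to it on the inside were Tek site 2710 at 48.0 kb and Nrp2 site 2286 at 38.1 kb. Just outside were Tek site 4068 at 55.8 kb, sites 1417 and 3042 at 66.6 and 69.7 kb from Ptprb, both closer to the start of Ptprr, and Kdr site 1389 at 85.2 kb, whose nearest start was that of Kdr.

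In the common list, the 23 sites were numbered from 81 to 4165 with a median of 2286, and the middle of the list is 2205.0. Cut into 4 parts of equal size, the list held 5, 6, 8 and 4 of them from its first part to its last. The sites in gene bodies had a median number of 1296.5 and those upstream one of 2497, with no like split of all common sites beside them. The MACS2 peaks under the 23 sites, 22 distinct peaks because of the shared Kdr peak, had a median number of 1324. As a percentage of list length, 22 of the 23 sites stood earlier in the MACS2 list than in the common list, as did 73% of all common sites. The exception was Ptprb site 1655, number 4375 in the MACS2 list. The sites were as wide as the others, with a median of 188 bp and 190 bp over all sites. Their median GC content was 51.1%, against 49.4% over all, and 1 of 23 held no CpG, as did 10.9% of all sites.

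**Figure D3:**
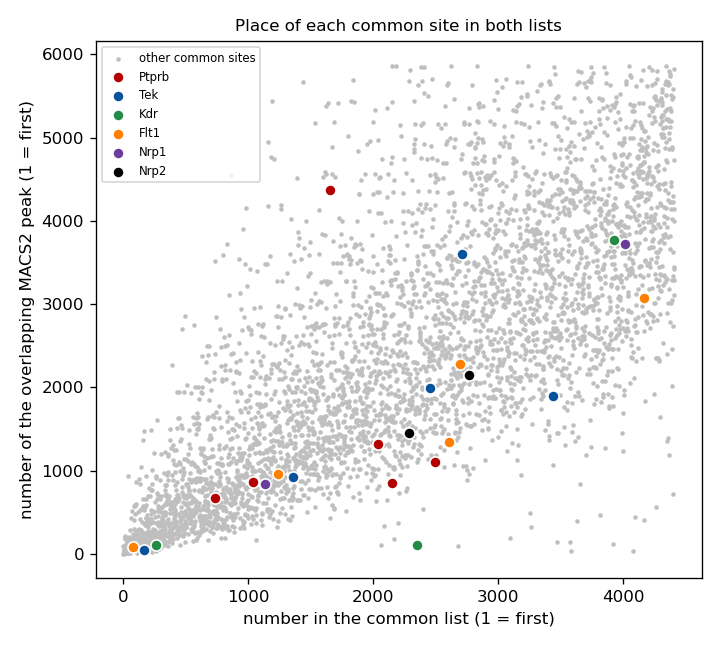
Each point is 1 common site, placed by its number in the common list (horizontal) and the number of the MACS2 peak it overlaps (vertical), where 1 is the first of a list. Coloured points are the 23 sites by gene and grey points the other sites. Flt1 site 81, Tek site 164 and Kdr site 262 lie in the lower left corner, Kdr site 2353 lies far below the cloud because it shares a MACS2 peak with site 262, and Ptprb site 1655 lies above it.

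A WGATAR word was present in 17 of the 23 sites, 73.9% with a 95% Wilson interval of 53.5% to 87.5% that covers counting error only, and in 82.9% of all common sites. With WGATA or GATAR also counted, 22 of 23 sites had a match, 95.7% (79% to 99.2%), beside 92.9% of all. Both intervals contain the share of all sites. Words numbered 0 in 6 sites, 1 in 12, 2 in 3 and 3 in 2, so that 5 sites had at least 2 (34.7% of all common sites) and 2 sites at least 3 (9.75% of all). In gene bodies 12 of 14 sites held a word, and upstream 5 of 9 did, with no like split of all common sites to set beside them. The sites with 3 words, Flt1 site 81 and Kdr site 262, were also 2 of the 3 lowest-numbered ones.

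Of the 24 words, 12 (50%) had the form AGATAA, which made up 44.6% of the words in all common sites. The form TGATAA was found 8 times, the form AGATAG 3 times, and the form TGATAG only at 1 place (4.17%, beside 11% in all sites). The words stood on the strand of the gene 8 times and on the opposite strand 16 times, with no like count over all sites beside it. The word nearest to the midpoint lay a median of 20 bp from it in sites that had one, against 18.0 bp in all sites. Within 20 bp of the midpoint 9 of the 23 sites held a word, as did 46.1% of all. In Nrp1 site 4010 the word was centred on the midpoint itself.

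The 6 sites without WGATAR were Tek sites 1355, 2450 and 2710, Ptprb site 2040, Nrp2 site 2286 and Flt1 site 4165. Tek site 1355 held TGATA on both strands, overlapping in a palindrome, and an AGATA 21.5 bp after the midpoint. Nrp2 site 2286 held GATAA on both strands, one of them 0.5 bp from the midpoint. Ptprb site 2040, Tek site 2450 and Tek site 2710 each held 1 shortened word.

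**Figure D4:**
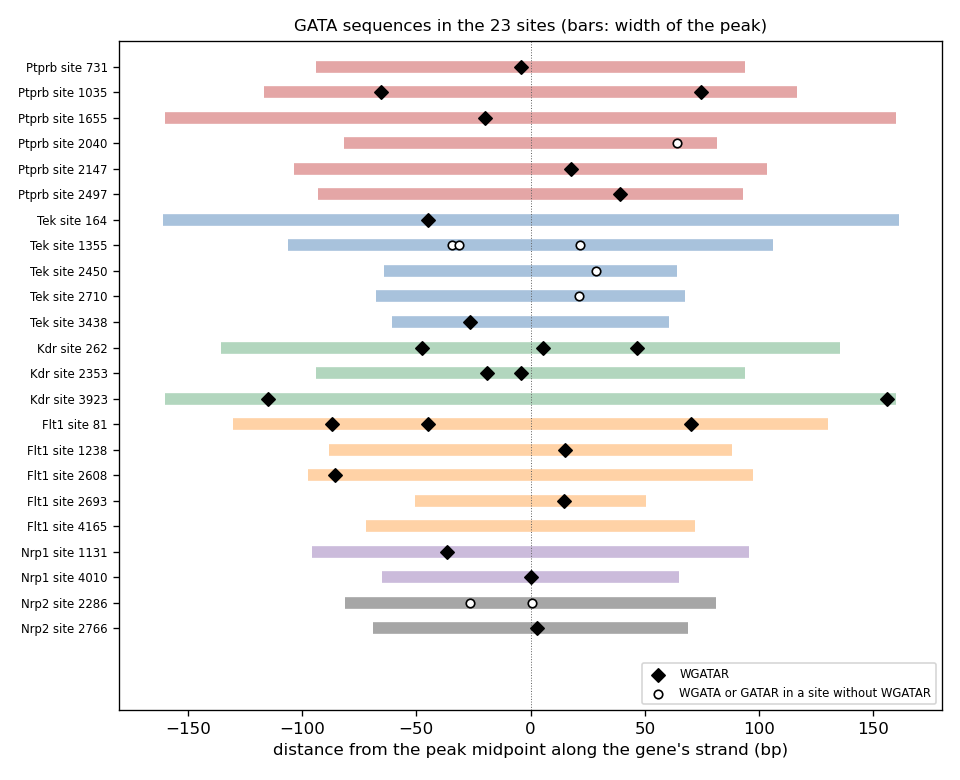
Each bar is 1 of the 23 sites drawn to its width, with distance from the peak midpoint in bp along the strand of the gene. Diamonds are WGATAR words and open circles mark WGATA or GATAR in the sites that lack the full word. Diamonds crowd in the intron 10 sites of Kdr, and Flt1 site 4165 is the 1 bar without a mark.

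Words known for other factor families were counted in 200 bp around each midpoint on both strands. For ETS factors the words were CCGGAA and its variant AGGAAG, for FOX factors TGTTTAC and its variant TGTTTGC, and for AP-1 the word TGANTCA. For SOX factors they were ACAATG and its variant ATTGTT, which can overlap on opposite strands and were then taken as one. For CEBP factors the word was TTGCNNAA, and for HNF4 the forms were CAAAGTCCA and, as its variant, AGGTCAAAG. An E-box with GATA was CANCTG followed after 7 to 9 bases by WGATA. ETS words occurred in 13 of 23 sites, 56.5% (36.8% to 74.4%), and in 48.7% of all common sites. SOX words occurred in 9 of 23 sites, 39.1% (22.2% to 59.2%), and in 18.3% of all. These 9 sites lay at Ptprb, Flt1 and Tek only, and the interval treats sites of the same gene as independent. Over the whole width of the peaks they were in 8 of 23 sites, 34.8% (18.8% to 55.1%), and in 18.6% of all. AP-1 words were in 3 sites, Ptprb sites 2040 and 2147 and Tek site 3438, and in 7.28% of all common sites.

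FOX, HNF4 and CEBP words were in 0 of 23 windows each and in 12.2%, 2.27% and 12.7% of all common sites. By approximation a count of 0 of 23 allows a share of up to 13% (3 sites of 23), and its Wilson interval runs to 14.3%. The FOX and CEBP shares of all sites lie only just below the first limit. Both limits treat sites of the same gene as independent. Whether the 23 sites differ from all sites in these words was not tested. Over the whole width of the peaks, 1 of the 23 sites held a FOX word. The E-box with GATA was also in 0 of 23 sites and in 0.953% of all. The 7 families were counted with no test, and a share seen in 23 sites of 6 genes rests on sites that share loci. A word is a match of letters, and neither its presence nor its absence says whether a factor was bound.

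The SOX words were spread over Ptprb (3 sites), Flt1 (sites 1238, 2608, 2693 and 4165) and Tek (sites 1355 and 2710), and Kdr, Nrp1 and Nrp2 had none. ETS words were present at all 6 genes. Of the 6 sites whose peak lacked WGATAR, 4 had an ETS word in the 200 bp window, 4 a SOX word and 5 either of them. This window can reach past the peak over which WGATAR was scored. The ETS words of Tek site 2710 and the SOX words of Ptprb site 2040 lay partly or wholly outside their peaks. Nrp2 site 2286 held neither. Among all 23 sites, 13 held an ETS word, 9 a SOX word and 17 either of them. No like split of all common sites stands beside these counts. Whether ETS or SOX words go with a lack of WGATAR was not tested.

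**Figure D5:**
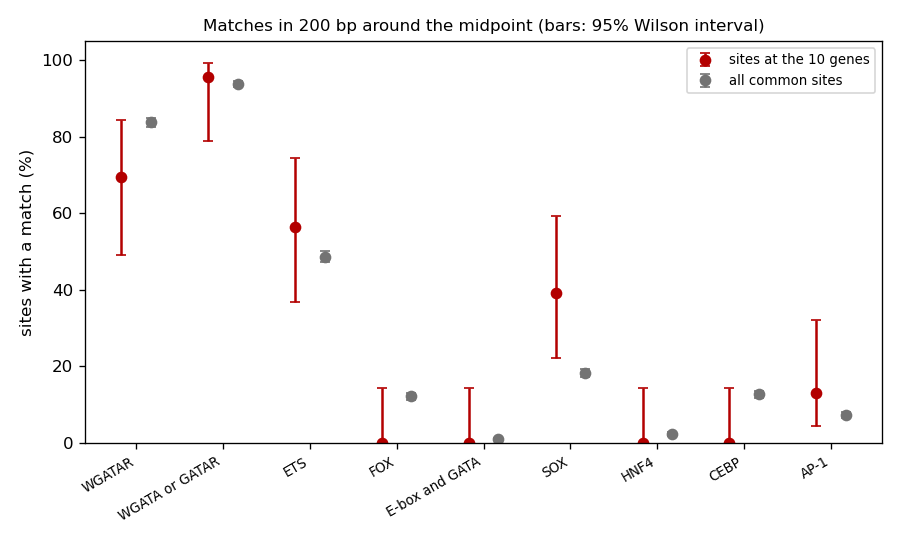
The vertical axis gives the percentage of sites with a match in 200 bp around the midpoint, for the 23 sites (red) and all 4409 common sites (grey), with 95% Wilson intervals as bars. SOX stands at 39.1% beside 18.3%, and FOX, HNF4 and CEBP stand at 0 for the 23 sites.

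Peaks found by MACS2 but not in the common list lay at the same 6 genes and at none of the other 4. There were 8 of them, 2 each at Ptprb and Flt1 and 1 each at Tek, Kdr, Nrp1 and Nrp2, with numbers from 3076 to 5617, and no peak was found by SPP alone. All 8 held a WGATAR, beside 85% of the 1496 MACS2 peaks beyond the common list, but these peaks were 244 to 1234 bp wide and so longer than the common sites, whose median was 190 bp. Nrp2 MACS2 peak 4632 covered the Nrp2 start in exon 1, and Nrp1 MACS2 peak 5402 lay 1.8 kb before the Nrp1 start, the places where neither neuropilin had a common site. Kdr MACS2 peak 3687 lay in intron 1 of Kdr at 3.6 kb. Ptprb MACS2 peak 4993 and Tek MACS2 peak 5178 lay downstream of their genes, where no common site lay. Ptprb MACS2 peak 5617, 16.9 kb before the first annotated start, had 5 WGATAR in 801 bp.

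Other genes of the pathway were counted by the same rule from a list of 39 (ligands, adaptors, downstream kinases and phosphatases, junction proteins and plexins). At least 1 site was found at 17 of them (43.6%), with 27 sites in all, none shared with the 10 genes, while the same rule found a site at 27.7% of all protein-coding genes and at 33.3% of the longer ones. The list was chosen with these data known, and no test was made of its share. Of the 27 sites, 18 at 14 genes had that gene's start as the nearest, and the other 9 lay nearer to the start of another gene. Among ligands, Angpt4 had site 67 within its body at 16.1 kb, a lower number than any of the 23 sites, and Vegfa had site 3178 at 43.6 kb from its body. The 2 sites in reach of Vegfb had Bad and Fermt3 as nearest genes. Angptl4, a secreted lipase inhibitor of the angiopoietin-like group, had site 119 at 7.4 kb before its start and site 837, which lay nearer to the start of Rab11b.

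Of the endothelial junction genes, Cdh5 (VE-cadherin) had site 1996 at 2.1 kb before its start and Pecam1 had sites 2552 and 2594 within its body. Nos3, the endothelial nitric oxide synthase, had site 4397 at 0.9 kb after its start, and Rcan1, an inhibitor of calcineurin, had 5 sites. Pik3r1, Foxo1, Egr3, Ptpn11, Plxna2 and Plxnd1 had 1 site each, and Ptpn6, Plxna4 and Sema3g had 2 each. The Egr3 site lay 27.0 kb from the gene body and nearer to the start of Bin3. Another gene also had the nearest start for Ptpn6 site 2019 (Lpcat3), Pecam1 site 2552 (Tex2) and Rcan1 site 4194 (Kcne1). Both Sema3g sites lay closer to other genes, Stab1 and Nisch. Among 9 near relatives of the receptors and of Ptprb, 3 had sites (33.3%, beside the same 27.7% of all genes): Ptprj with site 1539, Ptprh with sites 449 and 1743, which lay near other starts, and Kit with site 2871.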

How the data were processed

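GATA4 occupied sites were taken from the deposited peak lists of whole mouse liver. The authors aligned reads to mm9 with Bowtie 0.12.7, called peaks with a modified SPP and MACS2 2.0.10 against input, filtered both lists by reproducibility between replicates and intersected them with bedtools 2.16.1, keeping SPP coordinates. The score the authors deposited is 1000 throughout, so the list number served as order. Starts were converted to 1-based. Genes came from GENCODE M1 on NCBI Build 37 (mm9) in place of RefGene, and sequence from that build. Peaks overlapped when they shared 1 bp. Words were matched exactly on both strands, and shares carry 95% Wilson intervals. The search steps were checked on simulated data. Python 3.11.15, numpy 2.4.6, scipy 1.17.1 and matplotlib 3.10.9 were used.

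The genes and lists were chosen with earlier results of these data known. All 10 genes are named, pathway genes are named where they had a site, and neighbours where theirs was the nearest start to a site at the 10 genes. Sequences were to be those of up to 3 lowest-numbered sites per gene, and some are not reported here. Alternatives were the reach, the list, the span scanned, the word and the nearest start.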

Additional observations from a re-analysis of the deposited data

How the results depend on the processing

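Of 33 alternatives, 27 left their value within 1.5 times of the one reported, or for the WGATAR share within its interval. The sites at the 10 genes numbered 14 in gene bodies alone, 15 within 5 kb and 9 among the leading 2000 of the common list, and ranged up to 30 with the MACS2 list. The WGATAR share became 95.7% with WGATA or GATAR, the median number 1296.5 in gene bodies alone and the pathway genes with a site 8 there. The genes with a site stayed between 5 and 7 throughout. No paired analysis was possible because the lists pool the replicates and no result comes from a test. Leaving out a replicate was not possible for the same reason. The depth per site is unknown, so a gene without a site is one where none was called.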
